A study of Mus musculus with 192 samples.

Results

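Kit, Runx1, Gata2, Ptprc and Cd48 are 5 of the 95 genes, each with 1 of the 96 TaqMan assays, that were measured in single cells recruited to mouse wounds. They were taken by name, and each is known for a role in blood development or on blood cells. The assays are Mm00445212_m1 for Kit, Mm01213405_m1 for Runx1, Mm00492301_m1 for Gata2, Mm00448463_m1 for Ptprc and Mm00455932_m1 for Cd48. Recipient mice were joined by parabiosis, which gives a shared circulation, to GFP-positive donors, and GFP-positive cells without lineage antigens were then sorted out of their dorsal wounds. Of the 192 cells, 96 came from WT recipients and 96 from EKO recipients, mice that lack Cxcl12 in their endothelium, so the genotype is that of the wounded recipient and the GFP marks cells of donor origin. The driver of the deletion, the animals' age and number, the day after wounding and the lineage antigens were not given in the sources used here. Both genotypes were run in 2 sets, A and B, and each set held 48 cells per genotype.

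Kit is the receptor for stem cell factor and sits on blood stem and progenitor cells, on mast cells and on some endothelial cells. Runx1 and Gata2 are transcription factors that are needed for blood cells to arise from endothelium in the embryo, and both are also made outside the blood. Ptprc encodes CD45, the membrane phosphatase of nearly all nucleated blood cells, and Cd48 encodes an adhesion receptor of leukocytes that is low on the most primitive blood stem cells.

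The labels tie no cell to an animal, so each genotype was treated as 1 sample and no p-value was computed. Shares are given with exact Clopper-Pearson 95% intervals, which cover counting error only. WT cells hold the cell numbers 1 to 48 and EKO cells 49 to 96 in each set, and genotype and any effect of that order cannot be told apart. A gene was taken as detected at a Ct, the cycle at which a reaction crosses its fluorescence threshold, below 40, and 1 cycle is about a doubling of template. Of the 192 cells, 170 detected at least 10 of the 96 assays and were kept, 93 from WT and 77 from EKO recipients. Kept cells detected between 10 and 70 assays, with a median of 21 in WT and 34 in EKO. In the 22 cells left out, of which 19 were EKO, Kit was detected in 2, at Ct 22 and 23.1, and the other four genes in none, where a count of 0 allows a share of up to 13.6%.

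Kept cells were split by the fibrillar collagen gene Col1a1. Of them, 46 had a Col1a1 Ct below 16 and are called collagen-high, 25 from WT and 21 from EKO recipients, and the other 124 either crossed later (48 cells) or were at 40 (76 cells). The Col1a1 Ct nearest the limit were 14.25 inside it and 17.04 outside it, with no cell between them. All 46 collagen-high cells detected the mesenchymal receptor Pdgfra, against 6 of the 124 other cells. Collagen-high cells detected a median of 52 assays (36 to 61) and the other cells a median of 20 (10 to 70), so the classes were also compared among the 95 cells with at least 24 assays.

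Detection of the 5 genes separated into a frequent and a rare group. Ptprc was detected in 102 of 170 kept cells (60%, interval 52.2 to 67.4%), with Ct from 11.72 over a median of 17.04 to 20.67. Runx1 was detected in 83 cells (48.8%, 41.1 to 56.6%), with Ct from 12.42 over 16.80 to 20.61. Cd48 was detected in 68 cells (40%, 32.6 to 47.8%), with Ct from 15.15 over 19.32 to 23.06. The surface genes Ptprc and Cd48 and the factor Runx1 were thus each found in at least 68 cells, and Ct are compared only within a gene, since assays differ in efficiency. Kit was detected in 33 cells (19.4%, 13.8 to 26.2%), with Ct from 14.93 over 19.96 to 34.49. Gata2 was detected in 7 cells (4.12%, 1.67 to 8.30%), with Ct from 13.67 over 18.44 to 20.27. A single WT cell of set B, collagen-high, holds the Kit value of 34.49, and the next latest Kit Ct was 26.55. Kit was detected in 22 of 87 kept cells of set A and 11 of 83 of set B, while Runx1 was detected in 42 and 41.

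**Figure D1:**
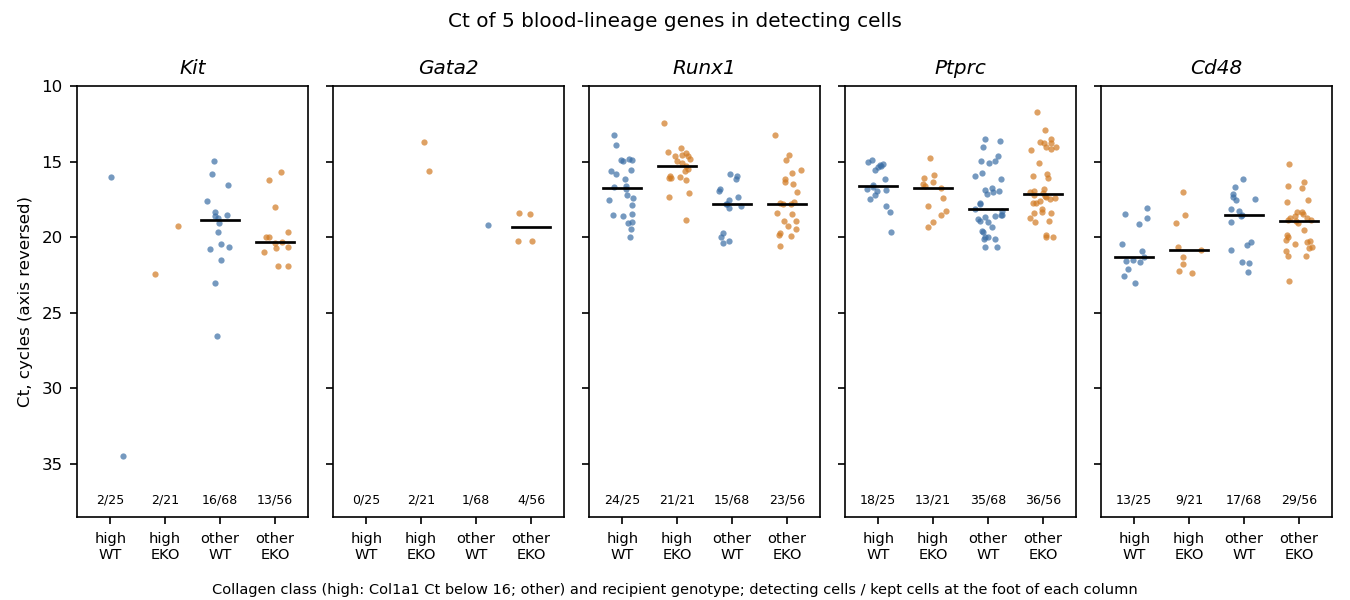
Each point is the Ct of 1 gene in 1 detecting cell, on a reversed axis in cycles so that more template is higher, for collagen-high and other cells of WT and EKO recipients; lines are medians (drawn for 3 or more cells) and the counts give detecting over kept cells. Runx1 filled the collagen-high class (24 of 25 WT and 21 of 21 EKO cells), Kit was found mainly outside it (16 of 68 WT and 13 of 56 EKO cells), and Cd48 crossed later inside it.

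Of the 32 possible combinations of the 5 genes, 22 were seen, 10 of them in 1 cell each. No member was detected in 42 cells, all outside the collagen-high class, which had a median of 15 detected assays. The most frequent combination was Runx1 with Ptprc and Cd48, in 30 cells, of which 16 were collagen-high. Ptprc alone was seen in 25 cells, none collagen-high, with a median of 18 assays. Kit with Runx1, Ptprc and Cd48 was seen in 18 cells, of which 15 were outside the collagen-high class, and all 5 genes were detected in 1 cell, an EKO cell of set A. Runx1 alone was seen in 13 cells, 12 of them collagen-high, and Runx1 with Ptprc in 11, 9 of them collagen-high. Runx1 with no other member, with Ptprc, or with Ptprc and Cd48 thus made up 37 of the 46 collagen-high cells (80.4%), and outside that class Runx1 alone was seen in 1 cell.

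**Figure D2:**
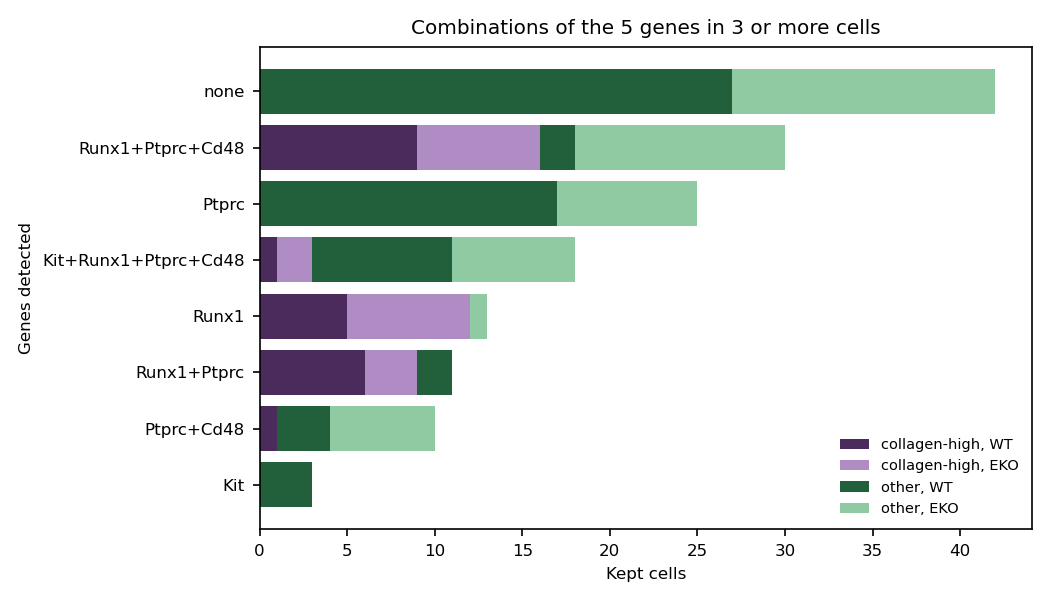
Bars give the number of kept cells (x axis) that detected each exact combination of the 5 genes (y axis), stacked by collagen class and recipient genotype, for combinations seen in 3 or more cells. Cells with no member (42) and with Ptprc alone (25) all lie outside the collagen-high class, and 12 of the 13 cells with Runx1 alone lie inside it.

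Of the 10 pairs, Ptprc and Cd48 had the highest share of joint detection: 62 of the 108 cells with either gene had both (57.4%, 47.5 to 66.9%). Of the 68 cells with Cd48, 91.2% also had Ptprc, whereas 60.8% of the 102 cells with Ptprc had Cd48. The phi coefficient, a correlation of detection over the 170 cells that is given as a description, since cells of high yield detect more of every gene, was 0.52 for this pair. Among the 95 cells with at least 24 assays it was 0.56, and 59 of 77 cells with either gene had both. Runx1 had a phi of 0.48 with Cd48 and 0.32 with Ptprc over all kept cells, and of -0.06 and -0.03 among cells with at least 24 assays. These last values pool the collagen classes, which differ in their shares of all 3 genes. Among the 49 cells outside the collagen-high class with at least 24 assays, phi was 0.61 for Ptprc and Cd48, 0.21 for Runx1 and Cd48 and 0.13 for Runx1 and Ptprc. Over all 124 cells outside the class, Runx1 and Cd48 had the higher phi, 0.65 against 0.53 for Ptprc and Cd48, and shared 32 of 52 cells with either (61.5%) against 42 of 75 (56%).

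Both genes lie on mouse chromosome 1, and the 250 bases before an annotated start of each, from RefSeq on GRCm38.p6, are printed because this pair had the highest joint detection over all kept cells. Ptprc is on the minus strand, at chr1:138175306-138175555, and is one of 2 annotated windows for the gene. Cd48 is on the plus strand, at chr1:171681742-171681991. Capitals mark a RUNX core, TGTGGT (or ACCACA on the other strand), and the GATA letters AGATAA (or TTATCT) were searched as well.
Ptprc: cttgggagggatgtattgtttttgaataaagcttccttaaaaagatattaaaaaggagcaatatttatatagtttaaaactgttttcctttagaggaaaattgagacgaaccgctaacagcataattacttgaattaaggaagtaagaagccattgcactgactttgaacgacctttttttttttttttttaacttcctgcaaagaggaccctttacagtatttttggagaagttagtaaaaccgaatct
Cd48: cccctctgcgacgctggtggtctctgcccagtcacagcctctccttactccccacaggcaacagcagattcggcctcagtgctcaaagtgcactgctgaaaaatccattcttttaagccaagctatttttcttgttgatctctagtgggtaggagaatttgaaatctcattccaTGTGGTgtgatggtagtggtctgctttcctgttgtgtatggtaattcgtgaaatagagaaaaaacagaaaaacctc
The Cd48 window holds 1 RUNX core and no GATA match, and the Ptprc window holds neither. The second Ptprc window, nearer the gene, holds 1 GATA match, and the windows of Kit (2), Gata2 (2) and Runx1 (2) hold neither motif. Among 32851 mouse promoter windows of that length, 14.05% hold a RUNX core and 9.99% the GATA letters, so 1 match in 1 window is a description of letters and not of a binding site.

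Ptprc and Kit crossed earlier in cells that also had Runx1. Outside the collagen-high class, among cells with at least 24 assays, the median Ptprc Ct was 15.06 ± 1.86 (SD over 31 cells) where Runx1 was detected and 17.26 ± 1.3 (SD, 11 cells) where it was not. Those 31 cells had a median of 37 assays and the 11 cells a median of 28. Kit crossed at a median of 18.66 ± 1.97 (SD, 20 cells) with Runx1 and 20.60 ± 0.74 (SD, 6 cells) without it. The ranges overlapped for Ptprc (11.72 to 18.98 with Runx1 and 14.05 to 19.30 without) and for Kit (14.93 to 21.89 and 19.99 to 21.94). The part of cell yield in these differences was not tested.

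Detection outside the collagen-high class followed the number of assays a cell detected, but not in the same way for each gene. Ptprc was found in 9 of 48 cells with 10 to 17 assays (18.8%), in 20 of 27 with 18 to 23 (74.1%), in 33 of 35 with 24 to 39 (94.3%) and in 9 of 14 with 40 to 70 (64.3%). Cd48 was found in 1, 4, 32 and 9 cells of the same 4 bins. Both leukocyte surface genes were therefore most frequent in the third bin. Runx1 was found in 0, 3, 23 and 12 of these cells and Kit in 2, 1, 15 and 11. Gata2 was found only in the bins above 23 assays, in 2 and 3 cells.

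**Figure D3:**
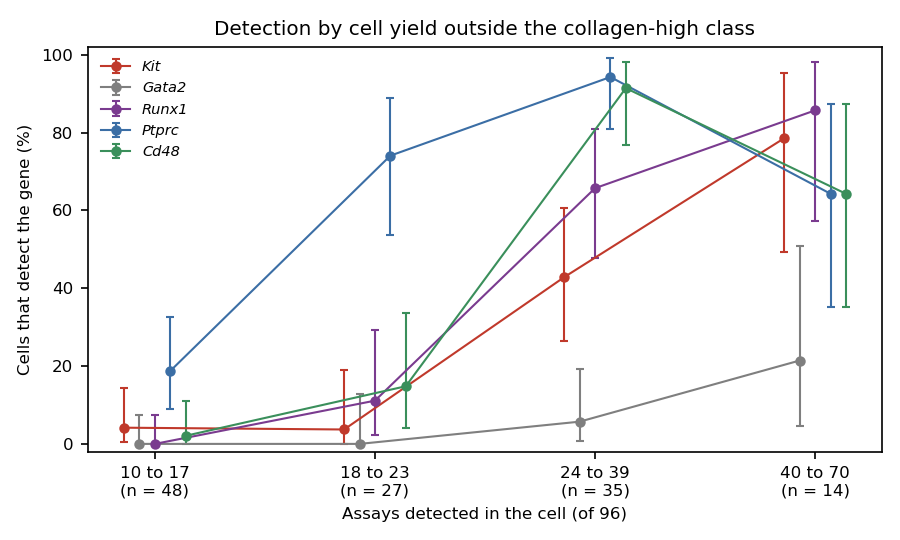
The share of cells outside the collagen-high class that detect each gene (y axis, percent, with exact 95% intervals) is drawn against the number of assays the cell detected (x axis, 4 bins of 48, 27, 35 and 14 cells). Ptprc reaches 74.1% at 18 to 23 assays, where Runx1, Kit and Cd48 are in 4 or fewer of 27 cells.

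Of the 5 genes, Runx1 was the most frequent in collagen-high cells. It was detected in 45 of 46 collagen-high cells (97.8%, 88.5 to 99.9%) and in 38 of 124 other cells (30.6%, 22.7 to 39.6%), a difference of 67.2 points. Cd48 was detected in 22 of 46 (47.8%) against 46 of 124 (37.1%), 10.7 points higher, and Ptprc in 31 of 46 (67.4%) against 71 of 124 (57.3%), 10.1 points higher. Kit was detected in 4 of 46 (8.70%, 2.42 to 20.8%) against 29 of 124 (23.4%, 16.3 to 31.8%), 14.7 points less often, at -22.6 points within set A and -6.30 within set B. Gata2 was detected in 2 of 46 and 5 of 124. By a size rule that asks for 10 points or more and one sign in both sets, Runx1 and Cd48 of the 5 genes were higher and Kit was lower. Over all 96 assays 60.4% were higher and 5.21% lower, and the median difference was 24.8 points. Ptprc stood at -0.41 points within set A and 21.2 within set B and did not meet the rule.

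With a filter of 24 assays the order changed, and Kit and Cd48 had the lowest differences of the panel. Among cells with at least 24 assays, Kit was detected in 26 of 49 other cells (53.1%, 38.3 to 67.5%) and the 4 collagen-high cells, a difference of -44.4 points (-60.5 within set A, -26.1 within set B), which was the lowest of the 96 assays. Cd48 was detected in 41 of 49 other cells (83.7%), a difference of -35.8 points, the second lowest. Ptprc was 18.3 points less frequent in the collagen-high class, and Runx1 was 26.4 points more frequent. With this filter the median of the 96 assays was 6.77 points, and 42.7% were higher and 15.6% lower by the size rule. Among the 24 other cells with 36 assays or more, the lowest number in any collagen-high cell, Kit was detected in 15 (62.5%), Cd48 in 19 (79.2%), Ptprc in 19 and Runx1 in 22 (91.7%). The differences were then -53.8 points for Kit, -31.3 for Cd48, -11.8 for Ptprc and 6.16 for Runx1, beside a median of 0.09 over all assays, with 31.2% higher and 21.9% lower. Yield was still not equal, with a median of 52 assays in the collagen-high cells and 42 in the others. Among cells with 40 to 70 assays, 45 collagen-high and 14 other, Kit was detected in 4 (8.89%) against 11 (78.6%, 49.2 to 95.3%), Cd48 in 22 (48.9%, 33.7 to 64.2%) against 9 (64.3%, 35.1 to 87.2%) and Ptprc in 31 (68.9%) against 9 (64.3%), so the Cd48 intervals overlapped and the order for Ptprc turned. The low share of Kit in collagen-high cells thus held at each of these filters, while the surplus of Runx1 shrank to 6.16 points at 36 assays or more.

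**Figure D4:**
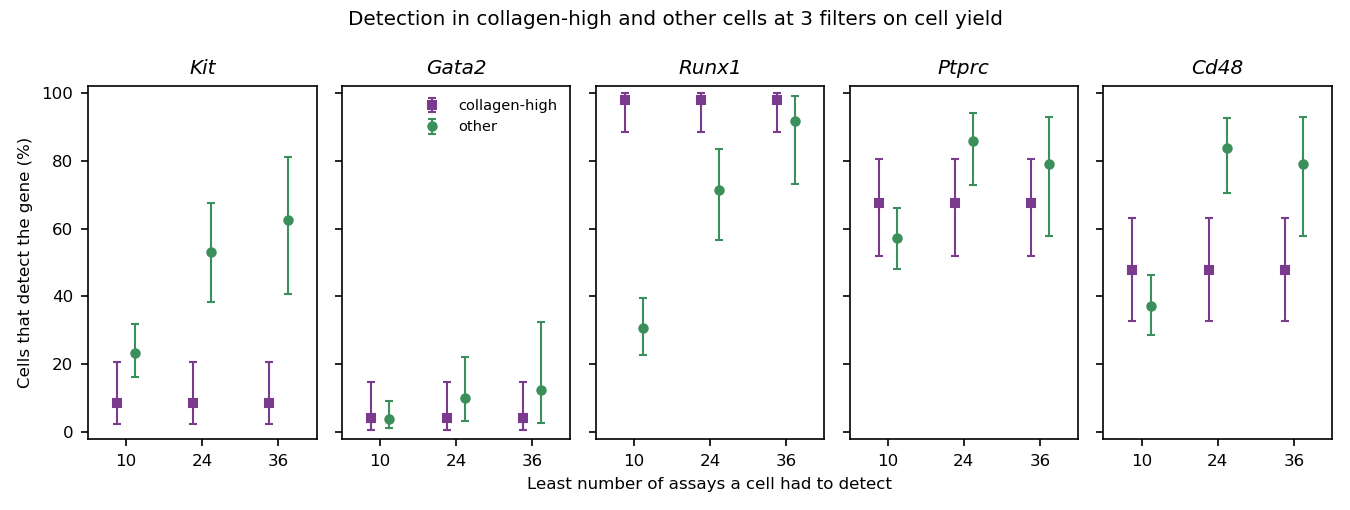
For each gene the share of detecting cells (y axis, percent, with exact 95% intervals) is drawn for the 46 collagen-high cells and for the other cells with at least 10, 24 or 36 detected assays (x axis; 124, 49 and 24 other cells). Kit rises from 23.4% to 62.5% in the other cells and stays at 8.70% in the collagen-high cells, and Cd48 goes from below to above its collagen-high share of 47.8%.

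Levels differed between the classes as well. Cd48 crossed at a median Ct of 21.10 ± 1.68 (SD, 22 cells) in collagen-high cells and 18.86 ± 1.76 (SD, 46 cells) in the others, 2.24 cycles later (2.55 within set A, 2.22 within set B). Of the 50 assays with enough detecting cells in both classes and sets, 49 had a smaller difference, and 4% were later by at least 1 cycle in both sets. Runx1 crossed at 15.94 ± 1.75 (SD, 45 cells) against 17.79 ± 1.78 (SD, 38 cells), 1.86 cycles earlier, where 54% of assays were earlier by the same rule. Set against each cell's own median Ct, the Runx1 difference was -0.70 cycles and the Cd48 difference 3.66. Ptprc differed by -0.66 cycles, less than the SD between cells, and by 1.13 relative to the cell median. These values are over all kept cells. Among cells with at least 24 assays, the Ptprc difference turned to 0.71 cycles (0.75 within set A, 0.73 within set B) and was 2.20 relative to the cell median. Cd48 and Runx1 kept their direction there, at 2.39 and -1.79 cycles.

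Within the collagen-high class, Ccr2 was detected only in cells with Ptprc, and Dppiv and Cxcr4 more often in them. Ccr2 and Dppiv were among the assays most like Ptprc by phi in these same data. The share of all assays that differ in this way was not counted. Ccr2, the receptor for Ccl2 on monocytes, was detected in 20 of the 31 collagen-high cells with Ptprc (64.5%, 45.4 to 80.8%) and in 0 of the 15 without it, where a count of 0 allows up to 20%. Dppiv, the peptidase Dpp4 that cleaves Cxcl12, was detected in 25 of 31 against 6 of 15. Cxcr4, the receptor for Cxcl12, was detected in 13 of 31 against 1 of 15. Cells with Ptprc detected 46 to 61 assays (median 53) and cells without it 36 to 61 (median 51). Among cells with 46 assays or more, 10 lacked Ptprc, and of these 0 had Ccr2 (a count of 0 allows up to 30%), 6 had Dppiv and 1 had Cxcr4. These were too few cells without Ptprc to tell the shares of Dppiv apart. Of the blood list, Cd48 was detected in 20 of 31 cells with Ptprc against 2 of 15 without, Kit in 4 against 0, Ly6a in 31 against 14 and Cd34 in 28 against 13. Of the mesenchymal receptors, Pdgfra was detected in all 31 and all 15, and Pdgfrb in 11 of 31 against 8 of 15. The median Col1a1 Ct was 10.2 with Ptprc and 8.8 without, and Runx1 crossed at 16.17 ± 1.60 (SD, 30 cells) with Ptprc and 14.93 ± 1.82 (SD, 15 cells) without. The myeloid genes Itgam and Emr1 were detected in 1 and 0 of the 31 cells with Ptprc. Whether a reaction held more than 1 cell was not tested.

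Ccr2 went with Ptprc outside the class too. Of the 41 kept cells with Ccr2, 41 had Ptprc, 37 had Runx1, 36 had Cd48 and 15 had Kit. It was detected in 21 of 71 other cells with Ptprc and in 0 of 53 without, which had a median of 28 and 15 assays. All 21 had at least 24 assays, where the comparison is 21 of 42 cells with Ptprc against 0 of 7 without, and a count of 0 allows up to 42.9%. At least 2 of the 4 measured myeloid genes (Itgam, Emr1, Ccr2 and Mmp9) were detected in 12 of the 102 cells with Ptprc and in 0 of the 68 without it. These cells had a median of 35 and 17 assays. Among cells with at least 24 assays the counts were 9 of 73 (12.3%) and 0 of 22, too few cells without Ptprc to tell the shares apart. None of the mast cell, lymphoid or erythroid and platelet markers listed for comparison is on the panel, so these cells could not be assigned to those lineages. By phi over the 95 cells with at least 24 assays, and 64 candidate assays detected in 10 to 90% of them, the assays most like Ptprc were Cd48 (0.56), Ccr2 (0.48) and Dppiv (0.40), and those most like Cd48 were Ptprc (0.56), Ccr2 (0.40) and Mki67 (0.32). Runx1 was most like Ctnnb1 (0.40), Timp2 (0.38) and Cd55 (0.37). Over all 170 kept cells the assays most like Ptprc were Cd48 (0.52), Dppiv (0.46) and Ccr2 (0.46), those most like Cd48 were Pik3r1 (0.59), Dppiv (0.56) and Ccr2 (0.55), and Pik3r1 (0.74) and Ctnnb1 (0.72) were among those most like Runx1.

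Kit was detected beside endothelial genes. By the same measure it was most like Cdh5 (0.42), the endothelial cadherin, Stab1 (0.39), a scavenger receptor of sinusoidal endothelium and macrophages, and Nos3 (0.36), the endothelial nitric oxide synthase. Over all kept cells it was most like Pik3r1 (0.35), Pecam1 (0.34) and Cd48 (0.33). Both sets of values pool the collagen classes, which differ in their share of Kit. Among the 49 cells outside the collagen-high class with at least 24 assays, Kit was most like Kdr (0.48), Itga5 (0.46) and Ccnd1 (0.44). Its phi there was -0.19 with Cd48 and -0.15 with Ptprc. Outside the collagen-high class every one of the 10 cells with Kdr, the main VEGF receptor, had Kit, as did all 8 with Tie1, all 8 with Tie2 and all 8 with Stab1. None of these 4 genes was detected in the 95 other cells without Kit, where a count of 0 allows up to 3.16%. The other endothelial genes were also found without Kit: Cdh5 and Nos3 in 2 of the 95 cells each, Flt-1 in 3 and Pecam1 in 12, against 9, 8, 8 and 18 of the 29 cells with Kit. Cells without Kit had a median of 18 assays (10 to 47) and cells with Kit a median of 36 (10 to 70). Among cells with at least 24 assays, Kdr was detected in 10 of 26 with Kit and 0 of 23 without, where a count of 0 allows up to 13.04%. Yield was still not equal there, with a median of 37.5 assays (24 to 70) with Kit and 33 (25 to 47) without. Of the 14 other cells with 40 to 70 assays, 11 had Kit, so few cells without Kit were of like yield. How many of all assays were likewise found only with Kit was not counted. In the collagen-high class only 4 cells had Kit: it was detected in 0 of 15 cells with Tie2, 2 of 13 with Kdr, 1 of 2 with Cdh5, 1 of 3 with Flt-1 and 1 of 3 with Stab1.

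The 29 Kit cells outside the collagen-high class divided by those markers. A threshold of 4 of the 7 measured endothelial markers (Kdr, Flt-1, Pecam1, Cdh5, Tie2, Tie1 and Nos3), chosen after the values were seen, was met by 8 cells outside the class, all with Kit. Of these, 7 were EKO and 7 were in set A, and they had a median of 54 assays. They held Runx1 in 6, Ptprc in 4, Cd48 in 4 and Gata2 in 3. The other 21 Kit cells, 15 WT and 6 EKO, held Ptprc in 17, Cd48 in 17, Runx1 in 15 and Gata2 in 2. Kit crossed at a median of 19.80 ± 2.04 (SD, 8 cells) in the first group and 19.99 ± 2.58 (SD, 21 cells) in the second, with ranges of 15.70 to 20.76 and 14.93 to 26.55. Genes of endothelium and of leukocytes met in the same reaction in 4 cases, where Kit, Ptprc and at least 4 endothelial markers were all detected. All 4 were EKO reactions of set A, and they detected 52, 63, 63 and 70 assays. No collagen-high cell detected more than 61 assays. Whether these reactions held more than 1 cell was not tested.

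The 7 Gata2 cells fell into several kinds. Of them, 3 were EKO cells of set A with 6, 7 and 7 of the 7 endothelial markers, with Gata2 at Ct 20.27, 20.25 and 18.44 and Kit at 16.21, 20.41 and 15.70. The first of these was the cell with all 5 genes, and neither of the other two had Ptprc or Cd48. A WT cell and an EKO cell of set B, each with 1 endothelial marker, had Gata2 at 19.21 and 18.42 and Kit at 14.93 and 21.94. All 5 Gata2 cells outside the collagen-high class therefore had Kit. The remaining 2 were collagen-high EKO cells of set B with no Kit, Gata2 at 15.62 and 13.67 and Runx1 at 14.65 and 14.61. Gata2 was thus detected in 6 EKO cells and 1 WT cell, and 0 to 3 cells per genotype and set. By phi it was most like Nos3 (0.30), Stab1 (0.28) and Angpt2 (0.28) among cells with at least 24 assays, and Ctgf (0.28), Kit (0.27) and Tie2 (0.26) among all kept cells, which rests on those 7 cells.

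Between recipients, the shares of the 5 genes over all kept cells differed by 17.1 points or less. Cd48 was found in 38 of 77 cells (49.4%, 37.8 to 61%) of EKO recipients and 30 of 93 (32.3%, 22.9 to 42.8%) of WT recipients, which is 17.1 points higher (13.8 within set A, 20.7 within set B). Runx1 was detected in 44 of 77 (57.1%) and 39 of 93 (41.9%), 15.2 points higher (5.45 and 25.4). Both met the size rule, which 20.8% of the 96 assays met in that direction and 0% in the other. With no filter on cells, which brings back 19 EKO and 3 WT cells with neither gene, neither met it: Cd48 was detected in 38 against 30 of 96 cells, 8.33 points higher, and Runx1 in 44 against 39, 5.21 points higher. Ptprc was detected in 49 of 77 (63.6%) and 53 of 93 (56.99%), and Kit in 15 of 77 (19.5%) and 18 of 93 (19.4%), with Kit at 9.94 points within set A and -9.88 within set B. Gata2 was detected in 6 of 77 (7.79%) and 1 of 93 (1.08%). EKO cells detected more assays, and from 24 assays upward Cd48 and Runx1 differed by 3.64 and -2.70 points, with 4.17% of assays higher and 11.5% lower by the size rule and no member among either.

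Among kept cells outside the collagen-high class, EKO cells more often held Cd48, Runx1 and Ptprc. Cd48 was found in 29 of 56 cells (51.8%, 38 to 65.3%) of EKO recipients and 17 of 68 (25%, 15.3 to 37%) of WT recipients, 26.8 points higher (25 within set A, 27.8 within set B), and 4 of the 96 assays had a larger difference. Runx1 was 19.01 points higher there and Ptprc 12.8, so that 3 of the 5 genes met the size rule, against 34.4% of all assays, with 2.08% lower. With no filter on cells, 75 EKO and 71 WT cells lay outside the class, and Cd48 was 14.7 points higher, Runx1 9.54, which is under the rule, and Ptprc -1.30, which turns its direction. Runx1, Ptprc and Cd48 without Kit were detected in 12 EKO cells (4 of set A, 8 of set B) and 2 WT cells (0 and 2). The same 3 genes with Kit and without Gata2 were detected in 7 EKO cells and 8 WT cells. At least 3 of the 5 genes were thus present in 23 of 56 EKO cells (41.1%), against 14 of 68 WT cells (20.6%), which had a median of 27.5 and 18 assays. Among cells with at least 24 assays this held for 23 of 32 EKO cells (71.9%) against 13 of 17 WT cells (76.5%).

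With at least 24 assays per cell outside the collagen-high class, Kit had the largest difference of the 5 genes. It was detected in 13 of 17 WT cells (76.5%, 50.1 to 93.2%) and 13 of 32 EKO cells (40.6%, 23.7 to 59.4%), 35.8 points less often in EKO, the lowest of the 96 differences. Within set A, 7 of 8 WT cells had Kit against 11 of 18 EKO cells, and within set B 6 of 9 against 2 of 14, so the direction was the same in both sets, although the intervals overlapped. Kit was the only member to meet the size rule there, which 10.4% of all assays met downward and 13.5% upward. Runx1 (71.9% EKO, 70.6% WT), Ptprc (87.5% and 82.4%) and Cd48 (84.4% and 82.4%) differed by 5.15 points or less. The median number of assays was 34 in EKO (25 to 70) and 36 in WT (24 to 47), so the range of yield was not equal. The Kit cells compared were not alike: 7 EKO cells and 1 WT cell among them had 4 or more endothelial markers. Without these 8 cells, Kit was detected in 12 of 16 WT cells and 6 of 25 EKO cells (-51.1 points within set A, -48.2 within set B). That threshold was chosen after the values were seen and removed only cells with Kit. Over all kept cells outside the class Kit was present in 13 of the 56 EKO cells and in 16 of the 68 from WT recipients, a difference of -0.32 points (6.25 within set A, -11.1 within set B), so the call and the shared direction of the sets appeared only with the filter of 24 assays, which was chosen after the values were seen.

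**Figure D5:**
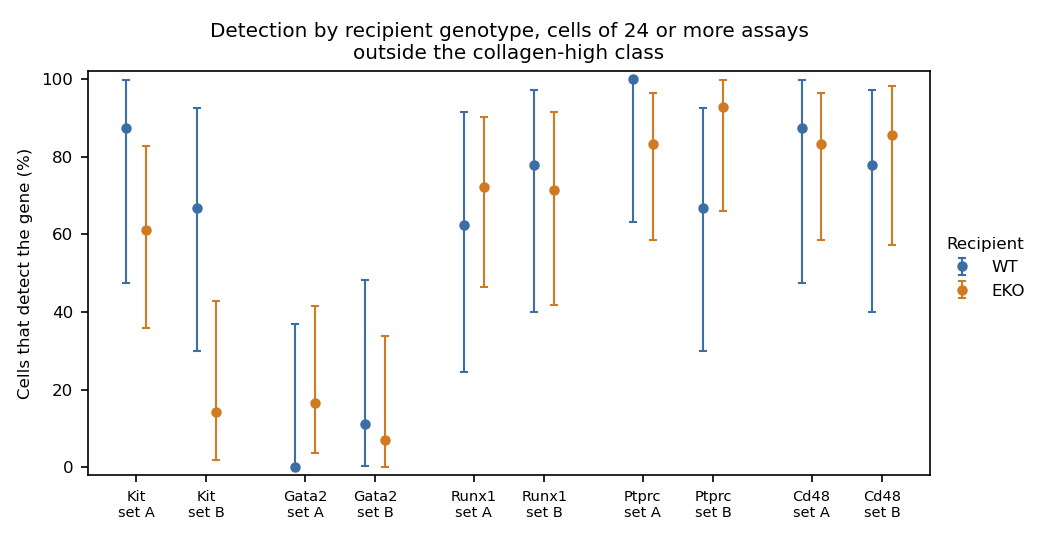
For cells outside the collagen-high class with at least 24 assays, the share that detects each gene (y axis, percent, with exact 95% intervals) is drawn by recipient genotype within set A (8 WT and 18 EKO cells) and set B (9 WT and 14 EKO cells). Kit lies lower in EKO in both sets, 61.1% against 87.5% and 14.3% against 66.7%, and Runx1, Ptprc and Cd48 change order between the sets.

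Kit also had a later median Ct in these EKO cells. It could not be called, since the rule of 1 cycle asks for at least 5 detecting cells per group and set. Its median was Ct 20.32 ± 1.95 (SD, 13 cells) for EKO and 18.63 ± 1.92 (SD, 13 cells) in WT, 1.70 cycles later, less than the SD between cells. It was 1.29 cycles later in set A and 3.87 in set B, where 2 EKO cells detected it. Ptprc crossed 1.11 cycles later in EKO here (0.23 within set A, 1.70 within set B), beside 7.69% of 26 assays later and 15.4% earlier by the rule of 1 cycle. Over all cells outside the collagen-high class it crossed 1.02 cycles earlier in EKO (-1.26 and -0.12), beside 36.1% of 36 assays earlier and 2.78% later, so the sign of the Ptprc level depended on the filter on cells.

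Within the collagen-high class no member met the size rule between recipients, against 12.5% of assays higher and 8.33% lower in EKO. Ptprc was found in 13 of 21 cells (61.9%, 38.4 to 81.9%) of EKO recipients and 18 of 25 (72%, 50.6 to 87.9%) of WT recipients, with differences of 8.93 points within set A and -31.7 within set B. Cd48 was detected in 9 of 21 and 13 of 25, and Kit in 2 of each. The level of Runx1 went the same way in both sets. In EKO it ran from Ct 12.42 to 18.84 with a median of 15.26 ± 1.34 (SD, 21 cells), and in WT from 13.24 to 20 with a median of 16.73 ± 1.84 (SD, 24 cells). The difference was -1.46 cycles (-1.72 within set A, -1.82 within set B), and -1.10 relative to each cell's median Ct. The ranges overlapped, the difference was of the size of the SD between cells, and 33.3% of the 48 assays compared were earlier in EKO by at least 1 cycle in both sets (20.8% relative to the cell median). Ptprc differed by 0.14 cycles between recipients, and was 1.29 cycles later in EKO relative to the cell median, beside 10.4% of assays later on that scale. Outside the class Runx1 differed by -0.02 cycles.

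Of the other measured genes of the blood list, Ly6a, the Sca-1 antigen of stem cells, was detected in 147 of 170 cells, Cd34 in 55 and Etv2, a factor of early blood and vessel formation, in 0, where a count of 0 allows up to 1.76%. Cd34 was detected in 41 of 46 collagen-high and 14 of 124 other cells. Outside the class 12 of 56 EKO cells had Cd34 against 2 of 68 WT cells, 18.5 points higher (31.2 within set A, 2.78 within set B). This met the size rule upward, as 34.4% of all assays did. From 24 assays upward the Cd34 differences were 44.4 points within set A and -7.94 within set B, which did not meet it. Ly6a, in cells of 24 assays or more there, was found in 25 of 32 EKO cells against 17 of 17 WT cells. The difference was -21.9 points (-16.7 within set A, -28.6 within set B) and met the size rule downward, as 10.4% of all assays did. Of the 7 other measured genes of the blood and myeloid lists, 1 met the size rule between recipients over all kept cells, where 20.8% of all assays did: Cd34, with 31 of 77 EKO cells against 24 of 93 WT cells, 14.5 points higher in EKO. Ccr2 was 8.14 points higher in EKO, and Itgam, Emr1 and Mmp9 differed by 3.94 points or less. The direction for Ccr2 turned in cells of 24 assays or more outside the collagen-high class, with 12 of 32 EKO cells against 9 of 17 WT cells. That difference was -15.4 points (-5.56 within set A, -27.0 within set B) and met the size rule downward, as 10.4% of all assays did.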

How the data were processed

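Lineage-negative, GFP-positive cells were measured 1 by 1 with 96 TaqMan assays. The authors deposited 1 table with assays in rows and cells in columns, described as not normalized, and no column was left unused. Its unit is not named there: the deposited values, other than those at 40, run from 4.49 to 37.9, and were read as raw Ct, with 12852 of 18432 at 40. Per the labels, genotype follows the cell number within each set. Software, threshold, preamplification and the number of animals were not given in the sources used here.

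Genes were matched by name without regard to case. Detection was a Ct below 40, kept cells had at least 10 detected assays, and collagen-high cells a Col1a1 Ct below 16. Differences are EKO minus WT or collagen-high minus other, in percentage points. The size rules were 10 points, or 1 cycle with at least 5 detecting cells per group and set, with the same sign in both sets. Levels are the median Ct with the SD over cells, with no reference gene. Named genes were the 5 members, the 3 assays with the highest phi with each member, and measured genes of the blood list. One assay that this rule names is not reported here. Other genes were named after their values were seen. The members, the marker lists and the tests were chosen with earlier results of these data known. Doublets were not called, and 0 pairs of cells had identical values. Promoters came from RefSeq on GRCm38.p6. Alternatives were other Ct limits, filters on cells, Col1a1 limits, single sets and reference scales. Python 3.11.15, NumPy 2.4.6, pandas 2.3.3, SciPy 1.17.1 and matplotlib 3.10.9 were used, and the functions were tested on simulated data.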

Additional observations from a re-analysis of the deposited data

How the results depend on the processing

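The 244 alternative values cover 34 results; of the 172 that bear on a comparison, 154 stayed within the 95% interval of the value reported (for levels, within the SD over cells) and kept the direction of any difference that met the size rule. Some of the 154 were fixed in advance. The highest detected Ct of Runx1, Gata2, Ptprc and Cd48 was 23.06, below every alternative Ct limit, so these limits could change only Kit. The levels of Runx1, Ptprc and Cd48 with no filter on cells could not change either, since no left-out cell detected them. With at least 24 assays detected, the EKO minus WT difference of Runx1 turned to -2.70 points and the class difference of Cd48 to -35.8. The class differences of the other four genes moved to -44.4 for Kit, 26.4 for Runx1, -5.86 for Gata2 and -18.3 for Ptprc, and cells with both Ptprc and Cd48 to 76.6% of those with either. With cells at or above the lowest yield of a collagen-high cell, an alternative chosen after seeing the data, the class differences were -53.8 for Kit, 6.16 for Runx1, -8.15 for Gata2, -11.8 for Ptprc and, reversed, -31.3 for Cd48. The class difference of Runx1 was 42.3 points at a Col1a1 limit of 20 and 43.1 at 40. Within other cells with at least 24 assays, also chosen after seeing the data, EKO minus WT was -35.8 points for Kit, 1.29 for Runx1 and 2.02 for Cd48. Within other cells with no filter on cells, added likewise, Ptprc turned to -1.30 points. The rule of 1 cycle was chosen after seeing the data too. The cause of these changes was not tested. The EKO minus WT level of Gata2 has 1 WT cell and was not compared. No paired analysis was possible because each genotype is 1 sample and the numbers in the labels only name cells. The number of cells limits the precision.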
